A study of Mus musculus with 2 samples.

Results

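The 6 genes described here are Glp1r, Kit, Adgrl3, Ntrk2, Clec1a and Cd93, which were grouped as genes of general capillary identity. They were taken by symbol from the 32286 features of the deposited matrices, and all 6 had a row. The question was in which endothelial classes each gene was kept and in which its level was lower in the library labelled aKO than in the library labelled aWT.

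The gas-exchange surface of the lung holds 2 kinds of capillary endothelial cell. General capillary cells maintain and repair the bed and share their program in part with other vessels, while aerocytes are large, thin cells specialised for gas exchange. The genes encode cell-surface proteins of different kinds, and several are used as landmarks to tell general capillary cells from aerocytes in mouse lung.

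Cells carrying red fluorescent tdTomato were sorted from mouse lung. The fluorescence was switched on by VE-cadherin-cre, whose recombinase is made under the promoter of an endothelial adhesion gene. Both libraries carry this system, come from C57BL/6J mice aged 10 to 12 weeks and were prepared with single-cell 3' v3 chemistry, which counts transcript molecules by unique molecular identifiers (UMIs). The series is titled as a model of hereditary hemorrhagic telangiectasia 2, but the labels name neither a deleted gene nor a treatment, nor how many animals gave each library. There was 1 library per group, so no difference between aWT and aKO could be tested, and the 95% intervals below, exact Poisson for levels and exact Clopper-Pearson for shares, cover counting error only.

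After filtering, aWT held 14332 endothelial cells (median 3957 UMIs) and aKO 10095 (median 5826 UMIs). The libraries shared 39 cell barcodes among the cells kept. Over all endothelial cells Acvrl1, the receptor gene tied to this disease, stood at 1022 CPM (UMIs of the gene per 1000000 UMIs of the cells summed) in aWT against 486 in aKO, and Id1, a target of that receptor, at 1201 and 119 CPM. Xist, the transcript of the inactive X chromosome, stood at 3.63 and 728 CPM, so the libraries also differed in the sex of the cells, and sex and label cannot be told apart. UMIs of other lung cells were more common in aWT: the alveolar type 2 markers summed to 179 CPM in its endothelial cells against 10.1 CPM in aKO, and the leukocyte markers to 22.4 against 1.37 CPM.

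Classes were set from UMIs of marker genes that include none of the 6 and are called "-like" below. General capillary-like cells made up 52.4% (51.6 to 53.2) of aWT and 43.5% (42.5 to 44.4) of aKO endothelial cells, which is 7506 and 4387 cells. The aerocyte-like class had 2133 and 1000 cells, the arterial-like class 762 and 607, the venous-like class 1116 and 525, and the lymphatic-like class 477 and 1603. Median depth was 5187.5 UMIs in aWT against 10340 in aKO for arterial-like cells, and 5671.5 against 9672 for venous-like cells. Cells near a limit, of several classes, proliferating or without enough markers stayed outside these 5 classes. The 7 general capillary markers themselves summed to 7537 CPM in general capillary-like cells of aWT and 3372 CPM in those of aKO, so the class was set by genes that also differed between the libraries.

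Promoter sequence is shown for Glp1r, Kit and Ntrk2 because these genes were lower together in aKO. Each stretch comes from RefSeq on GRCm38.p6, plus strand, and ends before the first annotated start of the gene in RefSeq or GENCODE. The Glp1r stretch is chr17:30901617-30901816, that of Kit is chr5:75574737-75574915 and that of Ntrk2 is chr13:58806319-58806471. Capitals mark a match to CGGAAG, an extended form of the site that ETS factors bind. Shorter forms of that site were not searched.
Glp1r: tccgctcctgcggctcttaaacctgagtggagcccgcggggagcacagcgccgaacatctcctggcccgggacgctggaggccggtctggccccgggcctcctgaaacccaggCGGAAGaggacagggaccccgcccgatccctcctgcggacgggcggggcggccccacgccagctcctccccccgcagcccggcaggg
Kit: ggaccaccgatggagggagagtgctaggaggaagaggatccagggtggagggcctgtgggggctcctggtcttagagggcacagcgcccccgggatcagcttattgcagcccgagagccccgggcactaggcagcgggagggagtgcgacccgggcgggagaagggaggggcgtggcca
Ntrk2: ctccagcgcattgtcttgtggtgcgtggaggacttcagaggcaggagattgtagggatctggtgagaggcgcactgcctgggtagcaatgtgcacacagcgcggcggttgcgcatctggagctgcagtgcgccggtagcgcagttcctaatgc
Both strands were searched for CGGAAG and for GGCGCC, an element bound by SMAD1 and SMAD5, and no matches overlapped. Of 32851 RefSeq windows of 250 bases before a start, 13.6% held CGGAAG and 9.59% held GGCGCC. In the 250 bases before its RefSeq start Glp1r held 1 match to CGGAAG, the windows of Kit and Ntrk2 held no match to either, and 1 of the 3 windows of Adgrl3 held 1 match to GGCGCC. Windows were found for 4 of the 6 genes. A match describes letters only.

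In general capillary-like cells 4 of the 6 genes, Glp1r, Kit, Ntrk2 and Cd93, were at least 2-fold lower in aKO on the log2(CPM + 5) scale, and Adgrl3 and Clec1a were not. Among the 4439 genes of at least 50 CPM in 1 library, 3.54% were lower by that rule and 4.57% were higher. The median log2 ratio, aKO over aWT, was -1.51 over the 6 genes and 0.08 over all genes measured. The genes therefore fell into a group with ratios between -1.68 and -1.41 and a pair at -0.26 (Adgrl3) and -0.24 (Clec1a), with none between.

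Glp1r (ENSMUSG00000024027, chromosome 17, 30901817 to 30940791, plus strand, mm10) encodes the receptor of the incretin hormone GLP-1, which signals through cyclic AMP. It stood at 483 CPM (475 to 491) in general capillary-like cells of aWT and at 149 CPM (144 to 154) in those of aKO. The ratio was 3.24-fold (3.13 to 3.36). In aWT the venous-like class came next at 64.6 CPM (58.7 to 71.0), then the arterial-like class at 38.4 (32.9 to 44.5), while lymphatic-like (23.4) and aerocyte-like cells (21.5) had overlapping intervals. Every other class of aKO was under 10 CPM: aerocyte-like 7.94, venous-like 7.31, lymphatic-like 3.91 and arterial-like 3.20, with overlapping intervals within each of these 2 pairs. Glp1r was thus highest in general capillary-like cells of both libraries.

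As a guide to free RNA, which droplets take up from broken cells, these low levels were set beside alveolar type 2-like and airway cells. These non-endothelial cells held 0.242 Glp1r UMIs per cell in aWT (132 cells) and 0.118 in aKO (17 cells). Arterial-like, lymphatic-like and aerocyte-like cells held 0.231, 0.124 and 0.108 in aWT, no more than those cells, and venous-like cells held 0.389. In aKO none of the 4 classes reached the level of the 17 cells, venous-like cells being highest at 0.0781, but that level rests on 2 UMIs. In aWT the level of the non-endothelial cells was 224% of that of aerocyte-like cells, so it exceeds the free RNA of that class. Alveolar type 2-like cells of aWT were also deeper, at a median of 15839 UMIs against 4735 in aerocyte-like cells. The part of free RNA in these counts was not tested.

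Kit (ENSMUSG00000005672, chromosome 5, 75574916 to 75656722, plus strand) encodes the receptor tyrosine kinase for stem cell factor. It stood at 651 CPM (641 to 660) in general capillary-like cells of aWT and at 241 CPM (235 to 248) in those of aKO, 2.70-fold apart (2.62 to 2.78). Elsewhere in aWT it ran from 22.0 CPM in aerocyte-like to 68.0 CPM in arterial-like cells, and in aKO from 10.7 CPM in venous-like to 18.0 CPM in arterial-like cells. Non-endothelial cells of aWT held 0.561 Kit UMIs per cell, more than any of the 4 classes, of which the arterial-like class was highest at 0.409. In aKO the 17 such cells held 0.176, from 3 UMIs, and arterial-like cells 0.204. In aWT the level of the non-endothelial cells was 507% of that of aerocyte-like cells, so for Kit too it exceeds the free RNA of that class. The part of free RNA in the Kit counts and ratios of these 4 classes was not tested. Kit is also a mast cell gene, and the 5 mast cell markers summed to 0.103 CPM in aWT against 1.12 in aKO general capillary-like cells, with Tpsb2, Fcer1a and Ms4a2 at 0 in both.

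Ntrk2 (ENSMUSG00000055254, chromosome 13, 58806569 to 59133970, plus strand) encodes TrkB, the receptor of brain-derived neurotrophic factor. It stood at 52.2 CPM (49.6 to 54.9; 1524 UMIs) in general capillary-like cells of aWT and at 12.9 CPM (11.6 to 14.4; 324 UMIs) in those of aKO. That is 4.04-fold lower in aKO (3.58 to 4.57), with a log2 ratio of -1.68 after adding 5 CPM. In arterial-like cells there were 46 UMIs (10.0 CPM) in aWT and 2 UMIs in aKO, 34.5-fold apart with a counting interval from 9.02 to 293. Venous-like cells had 22 UMIs in aWT and 0 in aKO, at least 6.12-fold lower against a floor of 3 counts. Non-endothelial cells of aWT held 0.0152 Ntrk2 UMIs per cell, against 0.0604 in its arterial-like and 0.0197 in its venous-like cells. The level was under 5 CPM in aerocyte-like and lymphatic-like cells of both libraries.

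Adgrl3 (ENSMUSG00000037605, chromosome 5, 81020138 to 81825133, plus strand) encodes latrophilin 3, an adhesion G protein-coupled receptor. Its level in general capillary-like cells was 4315 CPM (4291 to 4339) in aWT against 3614 (3591 to 3638) in aKO, 1.19-fold apart. In aerocyte-like cells it was 875 CPM (857 to 892) in aWT against 809 (786 to 832) in aKO. The difference was elsewhere: 864 against 154 CPM in venous-like cells, 299.9 against 58.9 CPM in arterial-like cells and 185 against 45.6 CPM in lymphatic-like cells. These are 5.63-fold (5.24 to 6.05), 5.09-fold (4.55 to 5.70) and 4.07-fold (3.59 to 4.61) lower levels in aKO. By CPM the levels of Adgrl3 lay close together in both capillary classes and apart in the 3 others.

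Part of the Adgrl3 signal in those 3 classes is at the level of non-endothelial cells. The latter held 2.61 Adgrl3 UMIs per cell in aWT, above the arterial-like (1.80) and lymphatic-like cells (0.979) and below the venous-like (5.20) and aerocyte-like cells (4.41). In aKO the 17 such cells held 4.71 per cell, but all 80 UMIs came from 2 cells, and lymphatic-like cells held 0.356. Aerocyte-like cells of aKO held 4.89, so that the level of these 17 cells was 96.2% of theirs. It was also 1321% of what lymphatic-like cells of aKO held, so it exceeds the free RNA of that class. With UMIs taken away at that level the aerocyte-like log2 ratio went from -0.11 to -3.35. The part of free RNA in the Adgrl3 levels outside general capillary-like cells was not tested further. In venous-like cells the general capillary markers moved with it, at 3744 CPM in aWT against 1848 in aKO, as did the venous markers, at 5580 and 3671 CPM, and their part in the Adgrl3 difference was not tested.

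Clec1a (ENSMUSG00000033082, chromosome 6, 129424772 to 129452000, minus strand) encodes a C-type lectin-like receptor of endothelial and myeloid cells. It stood at 965 CPM (954 to 977) in general capillary-like and 947 CPM (929 to 966) in aerocyte-like cells of aWT, whose intervals overlap. In aKO it stood at 815 CPM (804 to 826) in general capillary-like and 911 CPM (887 to 935) in aerocyte-like cells. The gene therefore marked both capillary classes, not general capillary-like cells alone. In the 3 other classes it was lower and differed more between the libraries, at 219 and 136 CPM in arterial-like, 165 and 65.3 CPM in venous-like and 154 and 103 CPM in lymphatic-like cells. Only the venous-like difference passed 2-fold, at 2.53-fold (2.25 to 2.86). Venous-like cells of aKO held 0.697 Clec1a UMIs each, about the 0.706 of the 17 non-endothelial cells, and those of aWT 0.995 against 0.629.

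Cd93 (ENSMUSG00000027435, chromosome 2, 148436640 to 148443563, minus strand) encodes a C-type lectin of group 14 that binds the matrix protein multimerin 2 and acts in endothelial adhesion and sprouting. General capillary-like cells stood at 1342 CPM (1329 to 1356) in aWT against 434 (426 to 442) in aKO, 3.09-fold apart (3.03 to 3.16). Venous-like cells stood at 1077 CPM (1053 to 1103) and 450 CPM (432 to 468), 2.40-fold apart (2.29 to 2.51). Arterial-like cells differed less, at 555 CPM (533 to 577) in aWT against 419 (404 to 435) in aKO, 1.32-fold apart (1.25 to 1.40). Per cell the order was reversed, as the arterial-like cells of aKO were deeper. They held 4.75 Cd93 UMIs each against 3.34 in aWT, and 1.54 Clec1a UMIs against 1.32, while Glp1r, Kit, Adgrl3 and Ntrk2 were lower per cell in aKO. In aKO the general capillary-like, arterial-like and venous-like levels lay within 419 to 450 CPM, whereas in aWT they spanned 555 to 1342 CPM. Aerocyte-like cells had 55.3 and 23.0 CPM, or 0.278 and 0.139 UMIs per cell, under the 0.917 and 0.235 of non-endothelial cells.

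**Figure D1:**
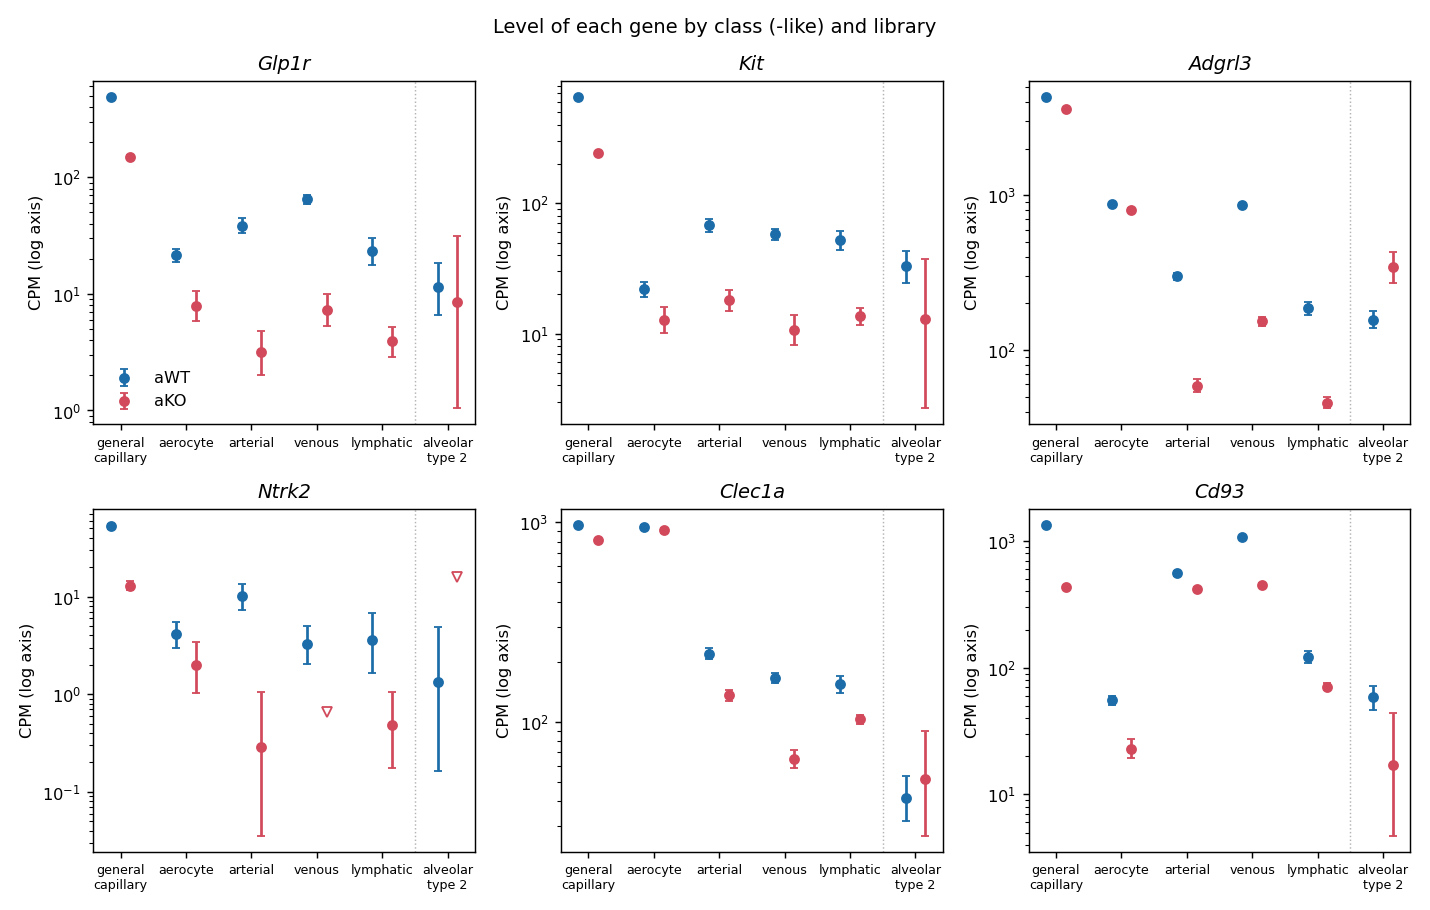
Level of each gene in CPM (log axis, a separate scale per gene) in 5 endothelial classes and in alveolar type 2-like cells, right of the dotted line, for aWT (blue) and aKO (red). Bars are 95% Poisson intervals, and open triangles are upper bounds where no UMI was counted. Of the classes shown, Glp1r, Kit and Ntrk2 are high in general capillary-like cells alone and Clec1a in both capillary classes. Cd93 is high in general capillary-like, arterial-like and venous-like cells.

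The name of the set fits Glp1r, Kit, Adgrl3 and Ntrk2, each at least 4-fold higher in general capillary-like than in any other class of its library by CPM. Against general capillary-like cells of aWT, 5 of 6 genes were at least 2-fold lower in aerocyte-like cells, with 9.47% of all genes lower, and Clec1a was the exception. In arterial-like cells 6 of 6 were lower (8.79% of all genes), in venous-like cells 5 of 6 (4.67%), with Cd93 the exception at 80.3% of the general capillary-like level, and in lymphatic-like cells 6 of 6 (12.9%). In aKO, where Ntrk2 did not reach 50 CPM, the counts were 4 of 5 in aerocyte-like (9.48%), 4 of 5 in arterial-like (10.9%), 4 of 5 in venous-like (6.67%) and 5 of 5 in lymphatic-like cells (12.5%). The set was chosen as general capillary genes, so these counts describe it and support nothing further. None was at least 2-fold higher than in general capillary-like cells, which held for 8.04%, 9.47%, 5.62% and 13.5% of all genes in aerocyte-like, arterial-like, venous-like and lymphatic-like cells of aWT and 6.95%, 9.73%, 5.80% and 12.4% in those of aKO. The exceptions in aKO were Clec1a in aerocyte-like cells, at 112% of the general capillary-like level, and Cd93 in arterial-like and venous-like cells, at 96.6% and 104%.

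Between the libraries, the other classes gave different members. In aerocyte-like cells Cd93 was lower of 3 genes measured (1.89% of all genes lower), and Adgrl3 and Clec1a had log2 ratios of -0.11 and -0.06. Arterial-like cells had Kit and Adgrl3 lower of 4 measured (4.09%), and lymphatic-like cells Kit and Adgrl3 lower of 4 (1.67%), where both genes were no higher per cell in aWT than in non-endothelial cells. Venous-like cells had 5 of 5 measured genes lower (4.25%), with log2 ratios of -2.50 for Glp1r, -2.45 for Adgrl3, -1.28 for Clec1a and -1.25 for Cd93, and Kit 5.40-fold lower. Kit in venous-like cells of aWT was under the level of non-endothelial cells, at 0.348 against 0.561 UMIs per cell. With UMIs taken away at that level its log2 ratio was 0, since no Kit UMI was left in either library. That level was 161% of the venous-like Kit UMIs in aWT and 154% in aKO, so this ratio does not describe Kit. Over all endothelial cells together Glp1r, Kit and Cd93 were lower of 5 measured (3.24%), where the shares of the classes also enter. None of the 6 was at least 2-fold higher in aKO in any of these, where 1.65% of all genes were higher in aerocyte-like, 3.27% in arterial-like, 4.25% in venous-like, 1.27% in lymphatic-like and 4.59% in all endothelial cells.

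**Figure D2:**
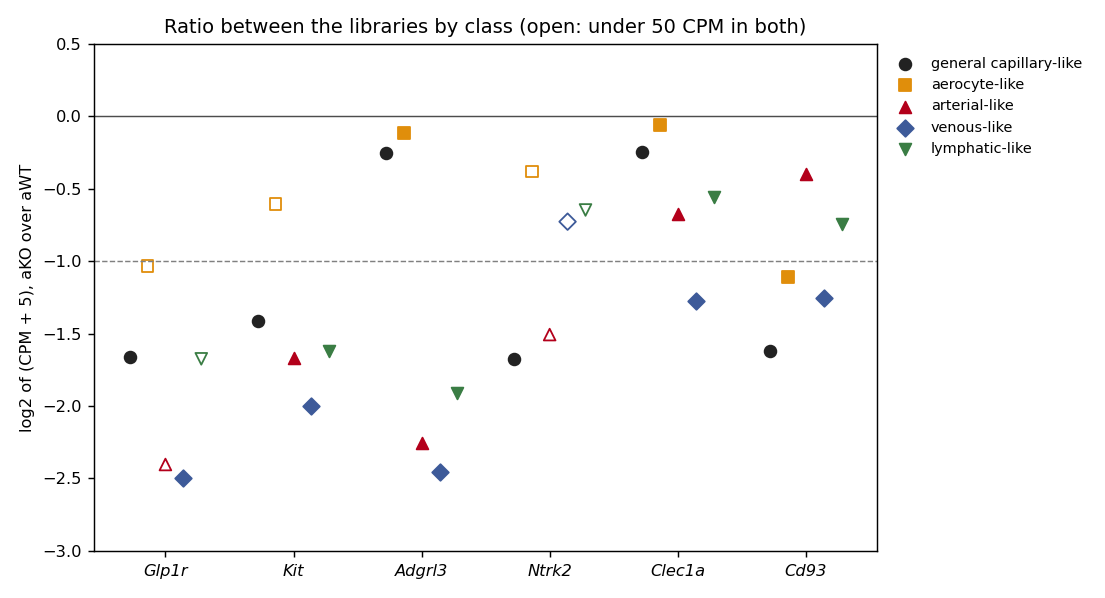
Log2 ratio of CPM + 5, aKO over aWT, for each gene (x axis) in the 5 classes (symbols). Open symbols had under 50 CPM in both libraries and the dashed line is 2-fold. No point lies above 0, and Adgrl3 and Clec1a lie near 0 in the 2 capillary classes only.

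The share of general capillary-like cells with a UMI was compared after thinning each cell to 2000 UMIs, which left 6418 aWT and 3859 aKO cells. Cd93 was found in 87.4% (86.5 to 88.2) of aWT and 52.1% (50.5 to 53.7) of aKO cells, Kit in 66.8% and 36.5%, Glp1r in 56.1% and 24.0%, and Ntrk2 in 8.16% and 2.41%. Adgrl3 was found in 94.9% (94.4 to 95.5) and 82.0% (80.8 to 83.2), and Clec1a in 79.4% and 71.4%. In thinned alveolar type 2-like cells of aWT (99 cells, class median 15839 UMIs against 3609 in general capillary-like cells) the shares were 9.09% for Cd93, 4.04% for Kit, 1.01% for Glp1r and Ntrk2, 13.1% for Adgrl3 and 11.1% for Clec1a. Thinning took a larger part of the UMIs from these deeper cells, so their shares do not measure the free RNA of a shallower cell. The part of free RNA in the general capillary-like shares was not tested. Without thinning the general capillary-like shares were 89.1% and 74.9% for Cd93, 78.7% and 60.0% for Kit, 68.6% and 41.6% for Glp1r, 13.3% and 5.54% for Ntrk2, 96.5% and 87.8% for Adgrl3, and 88.0% and 88.7% for Clec1a. All 6 shares were lower in aKO after thinning, whereas without it that of Clec1a was not, at a median depth of 3609 UMIs in aWT and 5202 in aKO. With thinning to a lower or a higher number of UMIs, 22 of 24 shares lay outside the intervals found at 2000 UMIs. The intervals therefore hold for that depth only.

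A thinned general capillary-like cell held a median of 4 of the 6 genes in aWT and 3 in aKO. At least 4 were found in 69.9% of aWT and 25.9% of aKO cells, and none in 0.358% and 3.94%. In venous-like cells none was found in 9.47% of aWT and 39.0% of aKO cells. In aerocyte-like cells the libraries were closer, with 4.31% and 7.32% without any, and 2 genes were the most common number in both.

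**Figure D3:**
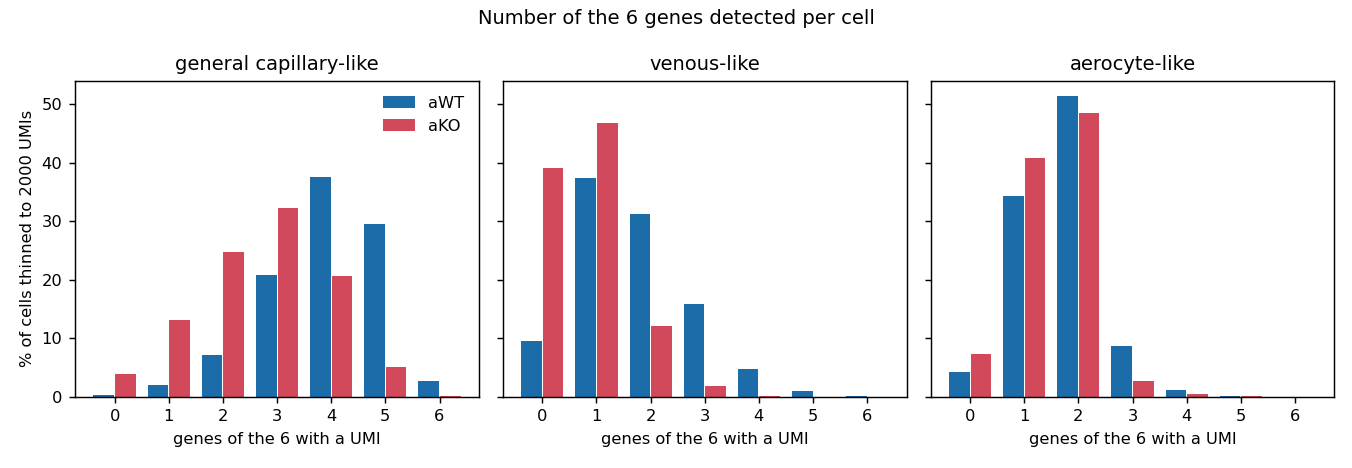
Percent of cells, thinned to 2000 UMIs, with 0 to 6 of the genes detected, in general capillary-like, venous-like and aerocyte-like cells of aWT (blue) and aKO (red). The bars of aKO sit further left in general capillary-like and venous-like cells, and lie close to aWT in aerocyte-like cells.

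General capillary-like cells of aKO were not uniform in these genes. Of its 3859 thinned cells, 694 (18.0%) held no Adgrl3 UMI, although the mean was 8.13 per cell, against 325 (5.06%) of 6418 in aWT at a mean of 8.55. The aKO cells without Adgrl3 had Glp1r at 10.1 CPM (5.51 to 16.9), those with it at 194 CPM (184 to 206). Clec1a stood at 326 CPM without and 1006 CPM with Adgrl3, Kit at 124 and 284 CPM, and Ntrk2 at 1.44 and 16.6 CPM. Cd93 did not follow, at 418 CPM in both. In aWT Glp1r stood at 385 CPM without and 486 CPM with Adgrl3, and Kit at 460.0 and 661 CPM, which are smaller ratios than in aKO. Cd93 differed in aWT, at 1103 CPM (1024 to 1187) without and 1357 CPM (1336 to 1378) with Adgrl3. Ntrk2 ran the other way there, at 75.4 CPM (55.8 to 99.7) without and 49.6 CPM (45.8 to 53.8) with it.

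The aKO cells without Adgrl3 also had less of the general capillary markers, which summed to 1773 CPM against 3967 CPM in cells with it. Sema3c, a semaphorin, stood at 97.3 CPM (81.5 to 115) against 1073 CPM (1047 to 1098) in cells with Adgrl3, Gpihbp1, which carries lipoprotein lipase to the capillary surface, at 120 against 577 CPM, and Cadm1 at 51.9 against 241 CPM. Aplnr, the apelin receptor, went the other way, at 87.2 against 51.2 CPM, and Hilpda stood at 533 and 522 CPM. Markers of other classes in those cells were 355 against 205 CPM for the arterial list, 189 against 106 CPM for the venous list and 446 against 521 CPM for the aerocyte list. Single venous markers differed more than their sum, with Car8 at 45.4 against 2.53 CPM, Selp at 19.5 against 0.474 CPM and Bst1 at 18.0 against 3.32 CPM, while Prss23, which makes up much of the sum, stood at 90.8 and 93.7 CPM. Cells without Adgrl3 were also deeper, with a median of 7948 against 5338 UMIs, and the endothelial markers were at 12148 and 13085 CPM. The part of depth and of other classes in this split was not tested. It was described after the values had been seen.

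**Figure D4:**
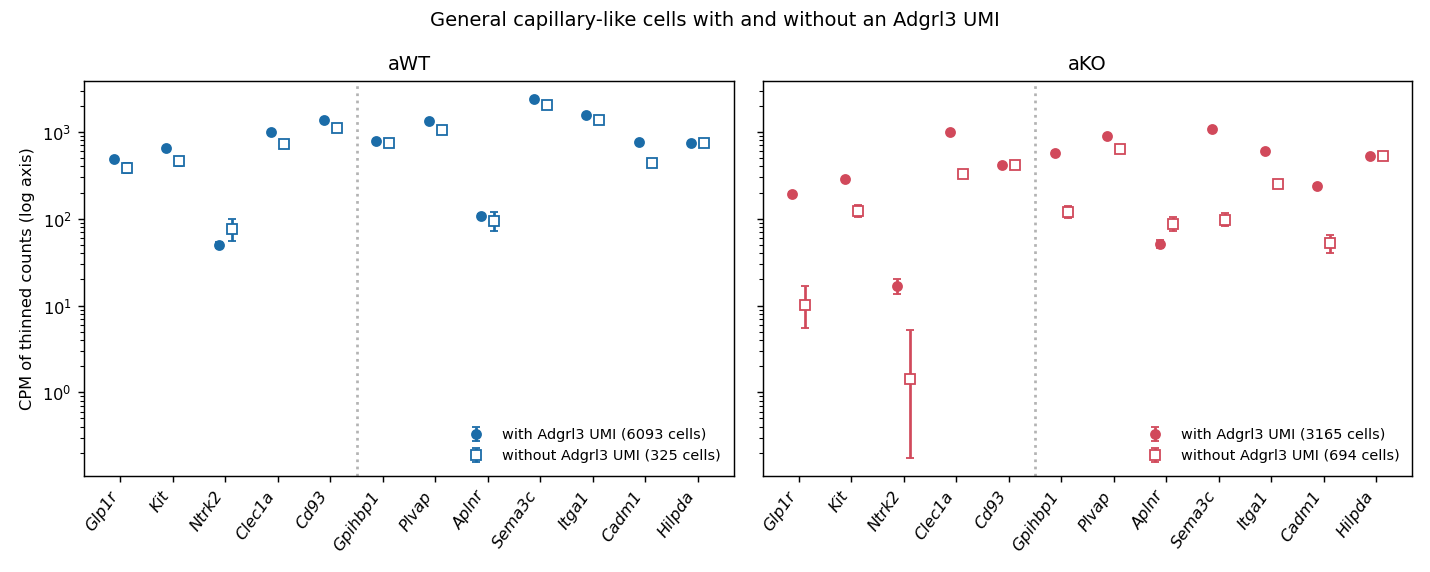
Level in CPM of thinned counts (log axis) of the 5 other genes and, right of the dotted line, the 7 general capillary markers, in general capillary-like cells with (filled circles) and without (open squares) an Adgrl3 UMI. Bars are 95% Poisson intervals. In aKO, Glp1r, Ntrk2, Sema3c and Gpihbp1 are far lower without Adgrl3 while Cd93 and Hilpda are level. In aWT the Glp1r, Sema3c and Gpihbp1 pairs lie closer together than in aKO, the Cd93 pair lies further apart and the Ntrk2 pair is reversed.

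Between general capillary-like cells and the other classes the genes dropped out at different points. Cells were binned by the UMIs of 1 marker list per 10000 UMIs of the cell, leaving out cells with 10 or more of any of the 3 other vessel lists. Along the aerocyte markers of aWT, Cd93 stood at 1293 CPM in the lowest bin (0 to 2), 933 at 10 to 20, 102 at 20 to 50 and 47.6 CPM at 50 or more. Clec1a stood at 921, 919, 904 and 958 CPM in the same bins, and Adgrl3 at 4264, 3342, 1234 and 802 CPM. In aKO the step came in a higher bin: Cd93 stood at 400, 485 and 285 CPM at 0 to 2, 10 to 20 and 20 to 50, and at 8.03 CPM at 50 or more, and Glp1r at 127, 183, 101 and 1.85 CPM. The aerocyte markers themselves summed to 155 CPM in general capillary-like cells of aWT against 501 CPM in those of aKO. The same bin therefore need not hold like cells, and the part of this in the step was not tested. The bins are wider than the aerocyte-like class, which holds 1000 aKO cells against 409 in the bin from 20 to 50 and 805 above it. That bin held 614 Cd93 and 217 Glp1r UMIs, while the whole class held 139 and 48, so most of the intermediate signal lay in cells outside the class.

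Along the arterial and venous markers Cd93 was the gene that stayed. In the highest arterial bin it stood at 464 CPM in aWT against 400 in aKO, from 1214 and 404 CPM in the lowest. In the highest venous bin it stood at 1143 and 521 CPM, from 1313 and 414 CPM. Adgrl3 went from 4993 to 157 CPM along the arterial markers in aWT and from 4084 to 37.7 CPM in aKO. Ntrk2 behaved differently in aWT, where it was 42.2 CPM in the lowest arterial bin, 66.2 at 5 to 10, 90.3 at 10 to 20 and 3.73 CPM at 50 or more. In aKO it went from 12.7 to 9.23, 3.59 and 0 CPM in those bins, so the highest Ntrk2 bin of aWT had no counterpart in aKO.

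**Figure D5:**
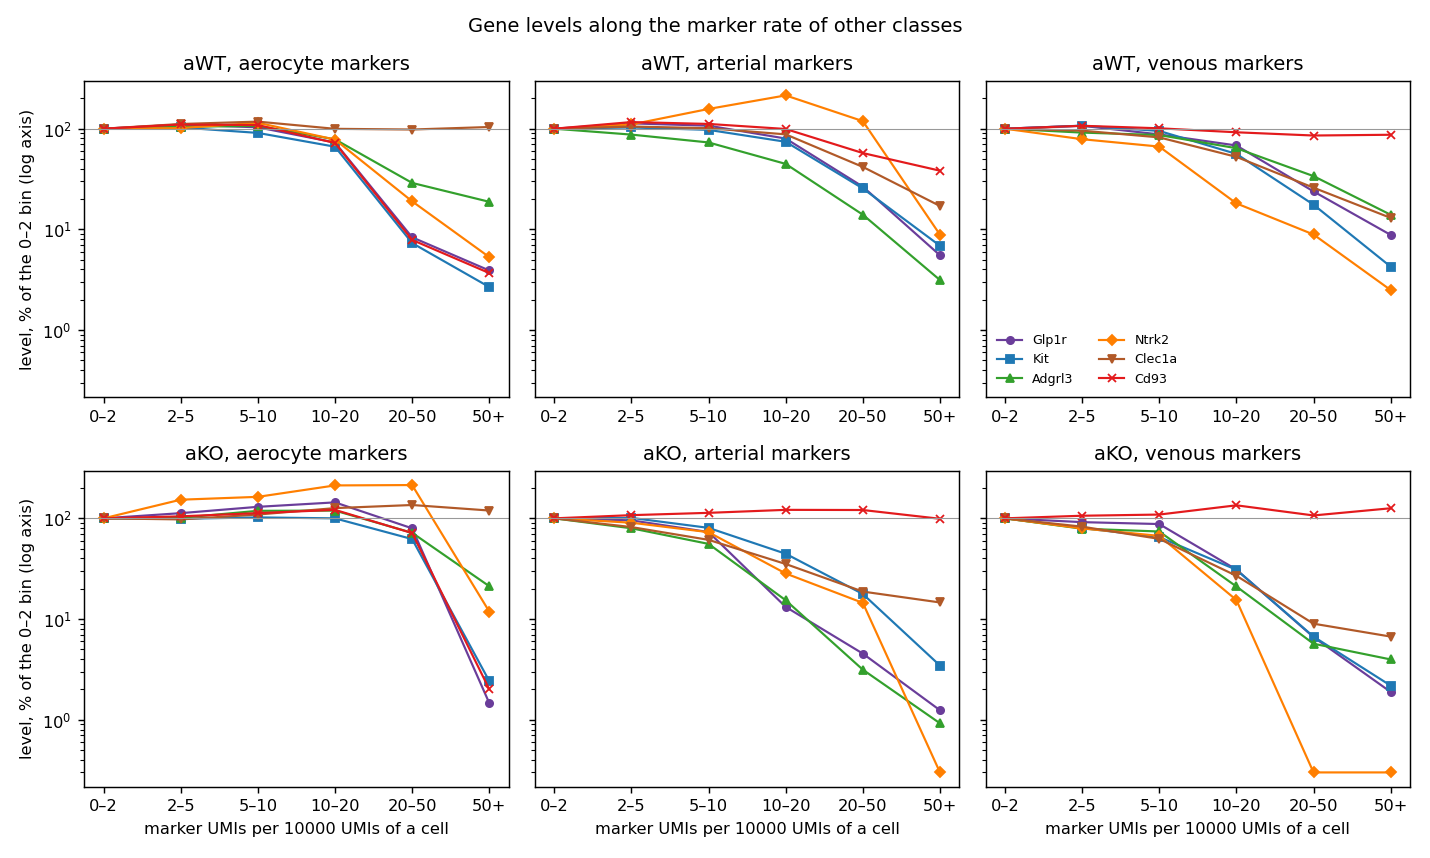
Level of each gene as a percent of its level in the lowest bin (log axis) along the UMIs of aerocyte, arterial or venous markers per 10000 UMIs of a cell, in aWT (top) and aKO (bottom). Points at 0.3% stand for 0 UMIs. Clec1a stays high along the aerocyte markers, Cd93 along the venous markers, and Ntrk2 rises along the arterial markers of aWT before it falls.

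The proportion of the genes to each other was also compared. Of the UMIs of the 6 genes, Adgrl3 made up 55.3%, Cd93 17.2% and Clec1a 12.4% in general capillary-like cells of aWT, and 52.0%, 19.2% and 13.7% in its alveolar type 2-like cells. Aerocyte-like cells had 45.4%, 2.87% and 49.2%, and venous-like cells 38.7%, 48.3% and 7.40%. In aWT the proportions of Adgrl3, Cd93 and Clec1a in alveolar type 2-like cells, from 452 UMIs, were thus close to those of general capillary-like cells. Clec1a in aerocyte-like cells and Cd93 in venous-like cells had their own proportions. In aKO the alveolar type 2-like values rest on 101 UMIs. They were 79.2%, 3.96% and 11.9% for Adgrl3, Cd93 and Clec1a, against 68.6%, 8.24% and 15.5% in general capillary-like cells.

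Levels within general capillary-like cells were also split by UMIs of Id1 and Id3, targets of the disease pathway, of Cd74, an antigen presentation gene, and by depth. In aWT, thinned cells without Id1 or Id3 (366 cells) had Cd93 at 1068 CPM (995 to 1146) and Glp1r at 430 CPM (384 to 481), against 1388 and 488 CPM in the 5302 cells with 2 or more. These aWT cells without Id UMIs stayed above the aKO class as a whole, at 418 CPM for Cd93 and 161 CPM for Glp1r in thinned counts. The 56 aKO cells with 2 or more Id UMIs had Cd93 at 696 CPM (550.5 to 869), against 414 CPM in the 3541 without. Glp1r, at 187.5 CPM (116 to 287) against 165, and Kit, at 277 CPM (188 to 393) against 257, had overlapping intervals, and Adgrl3, at 2652 against 4131 CPM, and Clec1a, at 625 against 893 CPM, went the other way. Adgrl3 in aKO was 5185 CPM in the shallowest cells, 4233 in the middle group and 2773 CPM in the deepest, and 4190, 4148 and 4486 CPM in aWT, so its level moved with depth in aKO. In aWT Glp1r stood at 463 CPM in cells without Cd74, 560.0 with 1 or 2 and 654 CPM with 3 or more UMIs, and Adgrl3 at 4388, 3756 and 3216 CPM.

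Ligands and partners of the receptors were taken from lists of 61 genes used, of which 36 reached 20 CPM in general capillary-like cells. At least 2-fold lower in aKO were 3 of the 36, and 1 was higher, where 2.92% and 3.92% of the 7340 genes at that level were lower and higher, and their median log2 ratio was 0.04 against 0.09. Dpp4, the protease that inactivates GLP-1, stood at 243 CPM in aWT against 62.1 CPM (59.0 to 65.3) in aKO. It was also lower in arterial-like cells (46.7 against 1.45 CPM) and venous-like cells (41.7 against 1.96 CPM). Gcg, which encodes the GLP-1 precursor, had no UMI in any of the 5 classes.

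The other 2 lower genes neighbour Clec1a in the lectin gene cluster. Clec9a, a lectin receptor best known from dendritic cells, stood at 126 and 51.3 CPM, and Clec2d, a ligand of natural killer receptors, at 597 and 287 CPM. The gene that was higher, Flrt2, encodes a ligand of latrophilins and stood at 23.9 CPM in aWT against 64.8 CPM (61.7 to 68.0) in aKO.

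Kitl, Mmrn2 and Igfbp7 differed by less than 2-fold in general capillary-like cells. Kitl, the ligand of Kit, stood at 671 CPM in aWT against 544 in aKO, and at 3262 and 2117 CPM in aerocyte-like cells. Mmrn2, the matrix partner of Cd93, stood at 77.5 and 91.9 CPM, and Igfbp7, another binding partner, at 194 and 263 CPM. Bdnf, the Ntrk2 ligand, was at 0.171 CPM in aWT against 3.99 in aKO, under the minimum. In the other classes the lists gave 1 lower of 34 measured in aerocyte-like cells (1.62% of all genes lower, 1.51% higher), 6 lower and 1 higher of 37 in arterial-like cells (3.52% and 2.77%), 4 lower and 1 higher of 32 in venous-like cells (3.42% and 3.96%) and 1 lower of 31 in lymphatic-like cells (1.60% and 1.14%).

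Genes most like the 6 were ranked by the mean Pearson correlation with them over the 5 class levels, log2(CPM + 5), among 5726 genes. In aWT these were Erg, Rsbn1, Kat6a, Grik2 and Ppp4r3b, each with a mean of 0.83, and in aKO Prpf8, Slc23a2, Nisch, Smyd3 and Gm26917, with means from 0.80 to 0.81. The libraries shared none of their 5 genes. A correlation over 5 points that share their libraries is a description only, and it ignores the size of the differences. In aWT Rsbn1 stood at 96.5 CPM in general capillary-like cells against 73.9 to 79.5 CPM in the other classes. Prpf8 in aKO stood at 67.8 against 57.5 to 60.5 CPM. Grik2 in aWT differed more, at 64.9 against 2.38 to 12.0 CPM. The 6 genes correlated with each other at a mean of 0.64 in aWT and 0.59 in aKO, with the lowest pair at -0.12 and -0.37. Erg, an endothelial ETS factor, stood at 312 CPM in general capillary-like cells of aWT and 384 CPM in those of aKO, and Grik2, a kainate receptor subunit, at 64.9 and 57.4 CPM.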

How the data were processed

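The deposited counts are whole UMIs per gene and barcode. Per the submitters' processing notes, the tool was Cell Ranger 7.2.0 and the build mm10, and, per the labels' protocols, libraries used 3' v3 chemistry. For the annotation release and the treatment of introns: not given in the sources used here. Intron reads would raise genes with long spans such as Adgrl3 and Ntrk2. Groups came from the sample titles. A barcode was kept with 500 or more genes and no more than 15% of its UMIs from mitochondria. Scrublet (scanpy 1.11.5, expected rate 0.8% per 1000 barcodes) marked 762 aWT (4.76%) and 406 aKO barcodes (3.68%), fewer than the 12.8% and 8.84% expected, which were removed.

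An endothelial cell needed 3 of 7 endothelial markers and no strong markers of other cells. The aerocyte, arterial, venous and lymphatic classes needed 3 marker genes, 5 UMIs and 20 marker UMIs per 10000, and general capillary-like cells 2 marker genes, 3 UMIs and none of the other lists at 10 per 10000 with 2 genes. These limits were set from marker counts alone. UMIs were summed per class and library and divided by their total (CPM), and log2 ratios had 5 CPM added, which understates changes of low genes. Genes of at least 50 CPM in 1 library (20 CPM for the pathway lists) were called at 2-fold. No test was made with 1 library per group. Intervals are at 95%, and the floor for 0 counts is 3 counts. The 2-fold rule was run on simulated counts with counting error only, which hold no variation between animals or libraries. Python 3.11.15, numpy 2.4.6, scipy 1.17.1 and edgeR 4.0.16 (TMM factors) were used.

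The 6 genes and all lists were chosen with earlier results of these data known. Named genes were the 6, per library the 5 most alike over the classes, listed partners past 2-fold, and Kitl, Mmrn2, Igfbp7, Bdnf and Flrt2, with markers and library checks. Gcg was added after its value had been seen. Coordinates are from GENCODE M21 on the same build. Genes overlapping Glp1r (2), Adgrl3 (4) and Ntrk2 (4) are not protein-coding. Clec7a is not analysed here.
Alternatives covered scaling, pseudocount, filters, doublets, class limits, thinning and free RNA, and 2 were added after seeing the data.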

Additional observations from a re-analysis of the deposited data

How the results depend on the processing

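In general capillary-like cells Glp1r, Kit, Ntrk2 and Cd93 kept a ratio past 2-fold under all 16 alternatives, with log2 ratios from -1.74 to -1.35, -1.43 to -1.24, -1.94 to -1.13 and -1.68 to -1.48. Adgrl3 ran from -0.38 to 0.05 and Clec1a from -0.25 to -0.06, never past 2-fold. Of the 16, 2, classes with every other list under 5 per 10000 UMIs and general capillary-like cells with a Gpihbp1 UMI, were chosen after seeing the data. The count of genes at least 2-fold lower stayed at 4 in this class except with free RNA taken away, with at least 100 CPM and with every other list under 5 per 10000 UMIs, where it was 3.

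Outside this class the counts of the 6 genes depended on the settings. Counts of all genes under the alternatives were made in general capillary-like cells alone, so those below have no share of all genes beside them. In aerocyte-like cells the count of 1 became 0 with a pseudocount of 20 CPM, with classes from thinned cells and with at least 100 CPM, and 2 with doublet calls kept and with at least 20 CPM. In arterial-like cells the count of 2 became 1 with at least 100 CPM, in venous-like cells 5 became 3, and in lymphatic-like cells 2 became 1 with at least 100 CPM and with 1 more UMI and marker gene, and 4 with doublet calls kept. Taking away as many UMIs per cell as non-endothelial cells held left 0 in arterial-like, 3 in venous-like and 0 in lymphatic-like cells, and turned the arterial-like Kit ratio from -1.66 to 0.58 and the lymphatic-like Cd93 ratio from -0.75 to 3.20, past 2-fold higher in aKO, although none of the genes reached 50 CPM in lymphatic-like cells after it. In aerocyte-like cells it left a count of 1, but of another gene: Cd93 went to 0 and Adgrl3 from -0.11 to -3.35. That alternative was applied to the 6 genes alone, since other genes belong to those cells. It rests on 132 aWT and 17 aKO cells. For Adgrl3 in lymphatic-like cells of aKO their level was 1321% of the UMIs held, so more than the free RNA was taken away there. No paired analysis was possible because each group has 1 library.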

Other observations

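The genes were also measured in endothelial cells outside the 5 classes, which entered no comparison by class. Those cells are counted in all endothelial cells together. Cells near a limit or without enough markers also entered the bins of marker rates. Cells without enough markers for a class (303 in aWT, with a median of 1256 UMIs, and 673 in aKO) had Adgrl3 at 2658 CPM (2516 to 2806) in aWT against 2755 (2670 to 2841) in aKO. Kit stood there at 171 and 175 CPM, Glp1r at 85.5 and 69.7 CPM, and Cd93 at 334 and 290 CPM, with overlapping intervals for each. Clec1a was higher in aKO, at 487 CPM (427 to 553) against 681 (639 to 725). These cells are shallow, and their markers of general capillary cells summed to 1059 and 684 CPM.

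Cells near the limit of a class (1904 and 1042) had Ntrk2 at 78 CPM (71.7 to 84.7) in aWT, above its general capillary-like level, against 10.5 (8.29 to 13.1) in aKO. Proliferating cells were few in aWT (27 against 182), and Cd93 stood there at 464 CPM (393 to 544) and 476 CPM (453 to 500), with overlapping intervals, while Adgrl3 stood at 671 and 189 CPM.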
